A study of Vitis vinifera with 27 samples.

Results

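LOC100254843 is a grapevine gene whose predicted protein is described in the deposited lists as similar to eugenol synthase 1. It was chosen by its symbol, as 1 of the 27096 genes listed in at least 1 of the 27 samples, because its level was known to separate the cultivars. All of its own values below are therefore a description, and no test of them is given. The samples were berries of 3 *Vitis vinifera* table grape cultivars with a Muscat flavour, grown under cover in 1 vineyard and picked in 1 season. Xiangfei has a green to golden skin and a strong flavour, Italia has a moderate flavour, and Zaomeiguixiang has a purple to red skin and a strong flavour. Each cultivar was sampled at EL35 (the onset of colouring and softening), EL36 (full veraison) and EL38 (harvest ripeness), with 3 replicates in each of the 9 groups. Each cultivar is a single genotype, so a difference between cultivars has no replication over genotypes. A shared stage label did not mean equal ripeness. By the paper's measurements, Italia had lower total soluble solids than both other cultivars at every stage. Its EL36 berries were even below the EL35 berries of the others. Comparisons with Italia thus set berries of unequal ripeness side by side, and the part of ripeness in them was not tested. A replicate pooled many berries, and the p-values given for other genes measure the spread between these pools.

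Eugenol synthase is a plant reductase that uses NADPH to turn coniferyl acetate into eugenol, the phenylpropene that gives clove its scent, and the enzyme is best known from the flowers and leaves of petunia, basil and clarkia. Its substrate is made from coniferyl alcohol, a monolignol, by an acyltransferase, and coniferyl alcohol comes from phenylalanine through the enzymes that also feed lignin. The enzyme belongs to a family of related reductases with pinoresinol-lariciresinol reductase, phenylcoumaran benzylic ether reductase, isoflavone reductase and leucoanthocyanidin reductase, and sequence alone does not settle which reaction a member carries out. The deposited annotation of LOC100254843 shows this, because its protein description names eugenol synthase 1 and its KEGG orthology entry names leucoanthocyanidin reductase. No volatile was measured in the files analysed here.

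The libraries held between 16908559 and 27186952 expected counts (median 23335793), and the gene was listed in 20 of the 27. Transcripts on a list of 33 seed proteins took 6.89% of the counts in Italia EL35 replicate 3, 1.58% in Zaomeiguixiang EL35 replicate 3 and 0.405% in Xiangfei EL38 replicate 3, against 0.0246% to 0.148% in the other 24 libraries. Transcripts of 76 skin-linked genes took 1.41% in Italia EL35 replicate 3 and 0.0666% to 0.232% elsewhere. Transcripts of 21 green tissue genes took 0.0571% to 0.515% in Xiangfei, 0.0282% to 0.443% in Italia and 0.0592% to 0.159% in Zaomeiguixiang, and 8 of the 9 Xiangfei libraries were above every Zaomeiguixiang library. In bulk berry RNA, fewer cells of a type and less RNA per cell cannot be told apart.

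Levels are given in FPKM, the authors' fragment abundance corrected for the length of the transcript and for library depth. In Zaomeiguixiang at EL35 the gene stood at 27.3, 155 and 103 FPKM in replicates 1, 2 and 3. At EL36 the Zaomeiguixiang values were 77.5, 53.1 and 65.4 FPKM, and at EL38 they were 82.4, 69.8 and 87.3 FPKM. All 9 Zaomeiguixiang libraries were thus high, at each of the 3 stages. In Xiangfei the values were 0.08, 0 and 0.25 FPKM at EL35, 0.04, 0.04 and 0 at EL36, and 0, 0 and 0.08 at EL38. In Italia they were 0.11, 0.12 and 0.11 FPKM at EL35, 0, 0.16 and 0.08 at EL36, and 0, 0 and 0.18 at EL38. No library of Xiangfei or Italia came near any library of Zaomeiguixiang, as the plot of all 27 libraries shows.

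**Figure D1:**
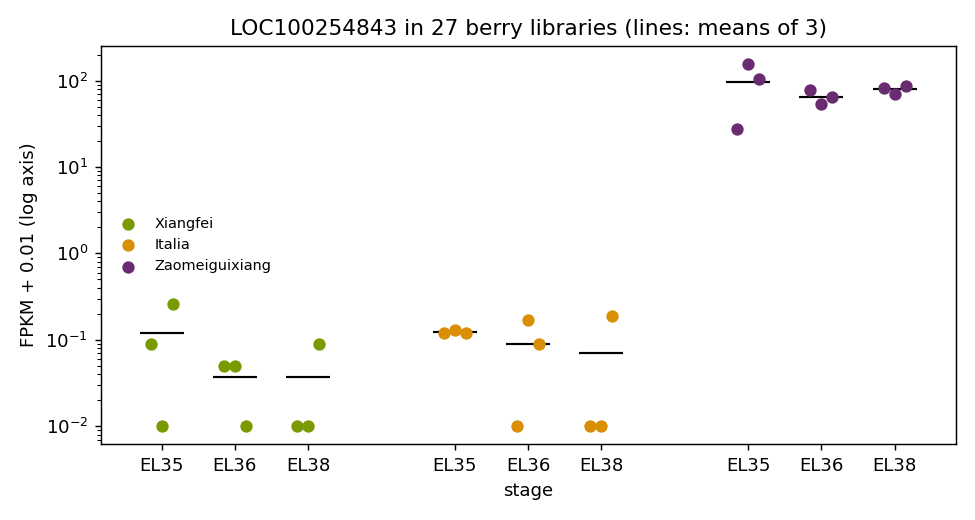
Level of LOC100254843 in each of the 27 libraries, in FPKM with 0.01 added so that 0 can be drawn on the log axis. Points are libraries, grouped by cultivar and stage, and the short black line is the mean of the 3 replicates. The 9 Zaomeiguixiang libraries lie between 27.3 and 155 FPKM and the other 18 at or below 0.25 FPKM.

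The lowest Zaomeiguixiang library, at 27.3 FPKM, was 109 times the highest of the other 18, at 0.25 FPKM. Among the 15389 genes that averaged 1 FPKM or more, all 9 Zaomeiguixiang libraries were above all others in 53 genes (0.344%), and by more than 10 times in 8 genes (0.052%). By the width of this gap LOC100254843 was number 2 of these genes. The same count of genes set apart upward by more than 10 times was 8 for Xiangfei and 6 for Italia.

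Behind these levels were 756 to 3050 expected counts per Zaomeiguixiang library and 16696 in all. The 9 Xiangfei libraries together held 12 counts and the 9 Italia libraries 18, and only 3 of these 18 libraries exceeded 3 counts, with 6, 4 and 4.18. As CPM (counts scaled to equal library totals), the Zaomeiguixiang libraries ran from 28.3 (95% Wilson interval 26.3 to 30.3) to 162 (156 to 168), while 3 counts, the limit that a count of 0 allows, stood for a CPM of 0.11 to 0.177. Summed over stages, Zaomeiguixiang was 1380 times Xiangfei (exact 95% interval 788 to 2670) and 892 times Italia (564 to 1510). These intervals cover counting error only. At EL35 the summed ratio was 790 to Xiangfei (401 to 1830) and 750 to Italia (380 to 1740). At EL36 and EL38 the Xiangfei libraries held 2 counts in all at each stage, and the ratios of 2360 (653 to 19500) and 2750 (762 to 22700) are correspondingly loose. Xiangfei and Italia cannot be ordered, since both sat near the limit of detection.

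Ordered by mean level, the 9 groups began with Zaomeiguixiang EL35 at 95.2 ± 64.4 FPKM (SD, n = 3), followed by Zaomeiguixiang EL38 at 79.8 ± 9.04 and Zaomeiguixiang EL36 at 65.3 ± 12.2. The ranges of these neighbours overlapped, so no order of the stages within Zaomeiguixiang holds beyond the spread. Next came Italia EL35 at 0.113 ± 0.00577 FPKM and Xiangfei EL35 at 0.11 ± 0.128, then Italia EL36 at 0.08 ± 0.08, Italia EL38 at 0.06 ± 0.104, and Xiangfei EL36 and EL38 at 0.0267 each. Each of these 6 groups overlapped its neighbours in the order. The single step that exceeded the spread was the one between Zaomeiguixiang and the rest.

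Replicates were much less alike at the onset of colouring than later. The highest Zaomeiguixiang library was 5.69 times the lowest at EL35, 1.46 times at EL36 and 1.25 times at EL38, with coefficients of variation of 67.6%, 18.7% and 11.3%. Among all genes listed in a library, the gene ranked 563rd by FPKM in EL35 replicate 2 and 4208th in EL35 replicate 1. The other 7 Zaomeiguixiang libraries placed it between rank 1087 and rank 2210. EL35 replicate 3, at 103 FPKM, was the Zaomeiguixiang library with the seed transcripts, and their part in its level was not tested.

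LOC100853950 is a second gene described as eugenol synthase 1-like. It is placed 3 genes away from LOC100254843 on chromosome 3 of the RefSeq assembly ASM3070453v1, which is not the build the files use, and only the order of genes was taken from it. Its Zaomeiguixiang levels were 24.2, 133 and 47.0 FPKM at EL35, 64.1, 49.3 and 62.9 at EL36, and 75.4, 61.7 and 87.4 at EL38. The other 18 libraries did not exceed 0.33 FPKM, so here too the 9 Zaomeiguixiang libraries stood clear of all others, with a gap of 73.5 times. By the width of this gap LOC100853950 was number 3 of the 15389 genes. The ratio of LOC100254843 to LOC100853950 lay between 1.00 and 1.21 in 8 of the 9 Zaomeiguixiang libraries and was 2.19 in EL35 replicate 3. The expected counts of the pair were fractional in all 9 Zaomeiguixiang libraries, so reads that fit several transcripts were divided, and the split between these 2 genes is uncertain.

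**Figure D2:**
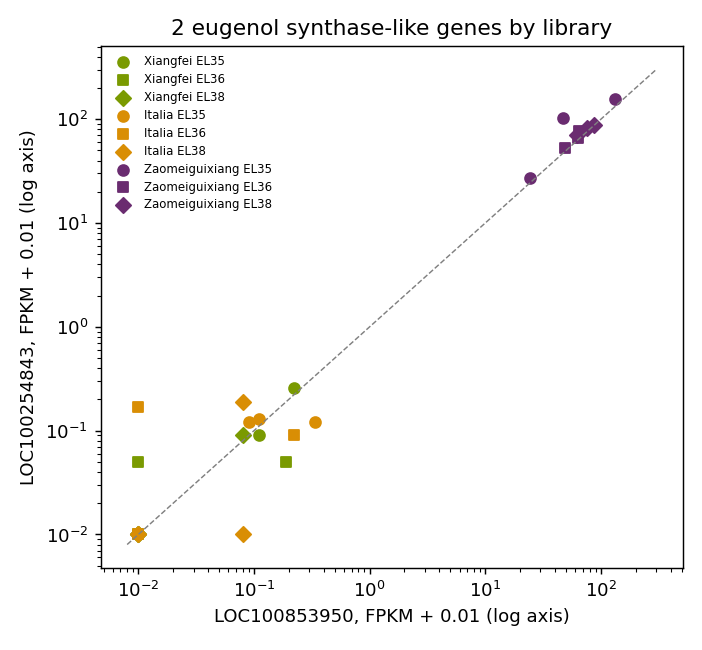
LOC100254843 (vertical axis) against LOC100853950 (horizontal axis) in the 27 libraries, in FPKM with 0.01 added, on log axes. Colours are cultivars, marker shapes are stages and the dashed line marks equal levels. The 9 Zaomeiguixiang libraries follow the line from 24.2 to 133 FPKM of LOC100853950, with EL35 replicate 3 above it.

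The quasi-likelihood test of edgeR was run on all genes, and other genes than LOC100254843 were read from it. LOC100853950 belongs to a list chosen with earlier results of these data known, and its split of reads with LOC100254843 is uncertain. Its p-values are therefore no separate test of LOC100254843. A gene was called where its log2 fold change was 1 or more in size and its p, adjusted over all genes tested by the method of Benjamini and Hochberg, was 0.001 or less. Averaged over stages in a fit of all 27 samples, LOC100853950 was higher in Zaomeiguixiang than in Xiangfei by 9.99 ± 0.71 on the log2 scale (SE, edgeR adjusted p = 9.906e-10), a comparison in which 2.14% of the 21152 genes tested were called. Over Italia the difference was 9.50 ± 0.68 (edgeR adjusted p = 1.363e-09), with 2.56% of genes called. Both calls held in each of the 27 fits that left out 1 library. These comparisons share the Zaomeiguixiang samples. In fits of 3 against 3 samples it was called over Italia at EL36 (9.51, edgeR adjusted p = 5.121e-04, 0.326% of genes called) and at EL38 (10.31, edgeR adjusted p = 2.203e-04, 0.165% called). These 2 calls were lost when any 1 replicate number was left out, with an adjusted p of up to 0.0173 at EL36 and 0.0182 at EL38. In the other 4 comparisons of Zaomeiguixiang with another cultivar the log2 fold change was about as large and was not called. Over Xiangfei it was 9.31, 9.66 and 11.04 at EL35, EL36 and EL38 (edgeR adjusted p = 0.009392, 0.01191 and 0.001483). Over Italia it was 8.69 at EL35 (edgeR adjusted p = 0.01448). In these fits 0.0174% of all genes were called over Xiangfei at EL35 and 0% in the others. DESeq2, run as an alternative, called LOC100853950 over both cultivars at every stage (DESeq2 adjusted p of 2.275e-12 or less). In these comparisons it called 0.792% to 2.82% of all genes higher. Between the stages of Zaomeiguixiang the log2 differences of LOC100853950 were between -0.39 and 0.22 and none was called, with edgeR adjusted p from 0.786 to 0.9235.

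The genes whose pattern was most like that of LOC100254843 were ranked by Pearson's r of log2(FPKM + 1) over the 27 samples, among the other 15388 genes that averaged 1 FPKM or more. An r above 0.9 was reached by 31 genes. The coefficient is a description, and it rests largely on the gap between the 9 Zaomeiguixiang libraries and the other 18. After LOC100853950 (r = 0.997) came UFGT (r = 0.99), the glucosyltransferase that completes anthocyanins. The ninth was GST4 (r = 0.96), a glutathione S-transferase of the kind that brings anthocyanins to the vacuole. Both act in the skin pigment pathway, and Zaomeiguixiang is the purple to red cultivar of the 3.

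UFGT stood in Zaomeiguixiang at 21.8, 166 and 90.3 FPKM at EL35, 166, 79.6 and 64.4 at EL36, and 308, 171 and 99.7 at EL38, and at no more than 0.78 FPKM elsewhere. GST4 ran from 9.96, 376 and 205 FPKM at EL35 through 1090.4, 438 and 358 at EL36 to 2533, 1041 and 593 at EL38, and did not exceed 1.97 FPKM in the other cultivars. The highest library was thus an EL38 library for these pigment genes and an EL35 library for LOC100254843. Zaomeiguixiang EL35 replicate 1 was the lowest Zaomeiguixiang library of LOC100254843, LOC100853950, UFGT, GST4 and LOC104877381 alike. Within the 9 Zaomeiguixiang libraries r to LOC100254843 was 0.875 for LOC100853950, 0.722 for UFGT and 0.603 for GST4. Without the 2 Zaomeiguixiang libraries farthest from the median of LOC100254843 r was 0.217, 0.258 and -0.048. Leaving out the extremes of the gene itself narrows its range, and r over the other 7 libraries is a description of those libraries alone.

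Of the other 7 genes, LOC100250566, described as a thioredoxin of the H type, a small protein that reduces disulfides, ran from 83.6 through a median of 165 to 293 FPKM in Zaomeiguixiang and did not exceed 0.69 elsewhere. LOC100855039, a protein of the large ribosomal subunit (60S L26-1), ran from 247 through 381 to 798 FPKM in Zaomeiguixiang and reached at most 6 FPKM elsewhere. Within Zaomeiguixiang their r to LOC100254843 was -0.388 and -0.64, and without the same 2 libraries it was -0.527 and 0.271. The remaining 5 were lower. LOC100252144, annotated with calcium transport terms, had a Zaomeiguixiang median of 11.1 FPKM, LOC104878557 (uncharacterised) of 8.25, LOC100855189 (an F-box protein with leucine-rich repeats) of 5.96, BGI_novel_G001334 (hypothetical) of 3.93, and LOC104877381 (described as a disease resistance protein) of 3.35. In the other cultivars these 5 stayed at or below 0.73 FPKM, and within Zaomeiguixiang their r lay between -0.313 and 0.349, or between -0.638 and 0.292 without the same 2 libraries. The ranking depended on the measure, since 7 of the 10 genes were shared with the top 10 over the 9 group means, 2 with that by Spearman's rho, and 1 with that within Zaomeiguixiang. LOC100853950 was number 1 by r within groups, number 3 by rho and number 2 within Zaomeiguixiang.

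**Figure D3:**
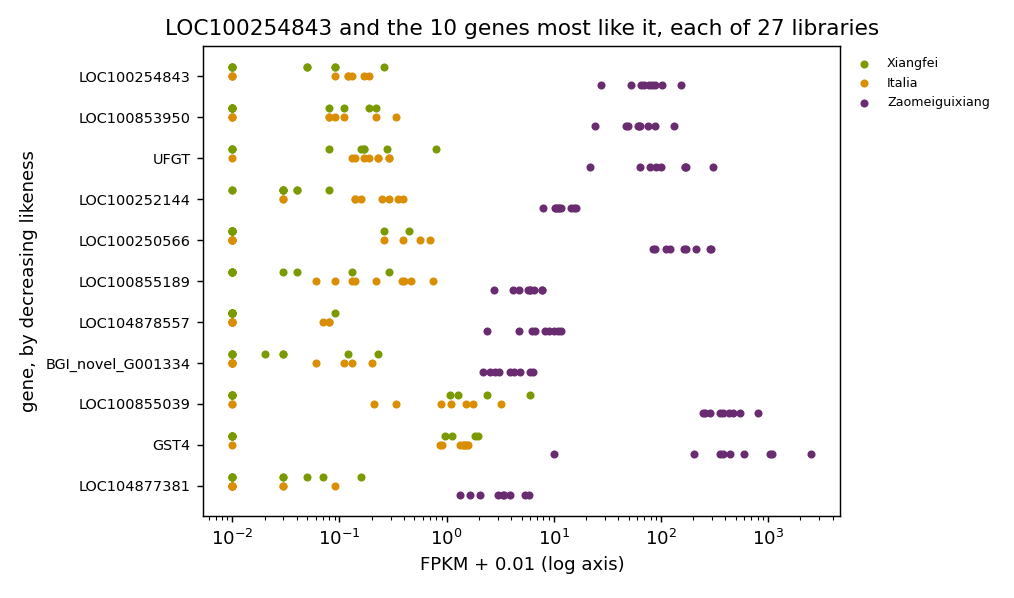
LOC100254843 and the 10 genes most like it, from top to bottom by decreasing r over 27 samples, with each library as a point at its FPKM plus 0.01 on a log axis. Colours are cultivars. In every one of these genes the 9 Zaomeiguixiang libraries lie to the right of the other 18, and GST4 spreads the widest within Zaomeiguixiang, from 9.96 to 2533 FPKM.

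By the order of genes in the RefSeq assembly, 24 genes lie within 12 places of LOC100254843, and 16 of them were listed in the files. Of the nearest 3 genes on each side, 4 were listed. LOC100265149, a receptor kinase with a lectin domain, did not exceed 0.02 FPKM in any library. LOC100246323 and LOC100249719, both described as serine carboxypeptidase-like 17, of a family in which some plant members act as acyltransferases, had maxima of 1.86 and 0.53 FPKM in Zaomeiguixiang, below their maxima of 6.12 and 4.3 FPKM in Xiangfei, and their ranges overlapped across the cultivars. The fourth was LOC100853950. LOC100259951, annotated as a pseudogene, and LOC100244573 were not in the lists. Of the listed genes among the nearest 3 on each side, LOC100853950 was thus the one that shared the pattern of LOC100254843.

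**Figure D4:**
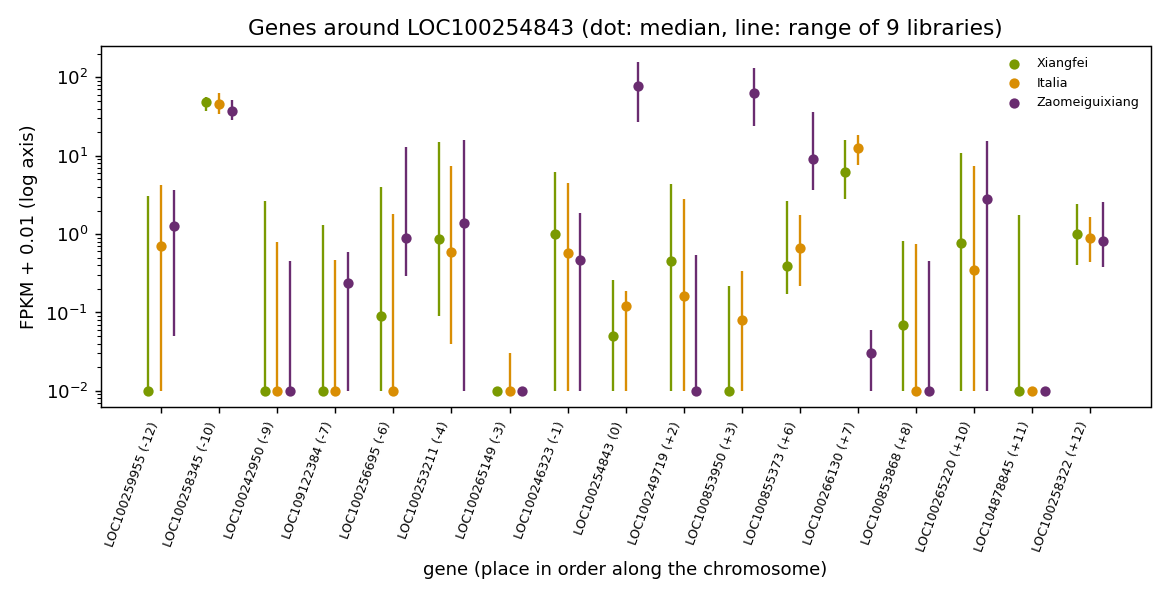
The 16 listed neighbours of LOC100254843 and the gene itself, in chromosomal order with the place relative to it in brackets. Points are the median and lines the range over the 9 libraries of each cultivar, in FPKM plus 0.01 on a log axis. The Zaomeiguixiang range is clear above the others at places 0, 3 and 6 and clear below at place 7.

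Within the 12 places, 2 genes, LOC100853950 and LOC100855373, had all Zaomeiguixiang libraries above the rest and 1, LOC100266130, had all below. Among the 15389 genes that averaged 1 FPKM or more the shares were 0.344% and 0.13%. That filter was not applied to the neighbours, so the 2 sets are unlike. LOC100855373 at place 6 and LOC100266130 at place 7 were named after their values were seen. LOC100266130, described as box C/D snoRNA protein 1, which serves the assembly of small nucleolar RNA particles, stood at 0 to 0.05 FPKM in Zaomeiguixiang. It ran from 2.76 through 6.14 to 16.1 FPKM in Xiangfei and from 7.63 through 12.4 to 18.6 in Italia. Zaomeiguixiang was clear below both other cultivars, which overlapped each other, and the direction was the reverse of that of LOC100254843.

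LOC100855373 carries KEGG entries for leucoanthocyanidin reductase and pinoresinol/lariciresinol reductase, although its protein description is hypothetical. In Zaomeiguixiang it ran from 3.59 through 9.01 to 36.5 FPKM, and in Xiangfei and Italia it stayed at or below 2.62 and 1.72 FPKM. Its counts overlapped, with 49.5 to 150 in Zaomeiguixiang, 19.8 to 548 in Xiangfei and 29.2 to 356 in Italia. What differed was the mean transcript length the authors' quantification assigned, from 315 through 567 to 1011 bases in Zaomeiguixiang, from 2292 through 8172 to 10386 in Xiangfei and from 3357 through 9026 to 11350 in Italia. The FPKM of LOC100855373 thus separated the cultivars beside overlapping counts and a shift in the assigned length. Which transcripts or genes its reads came from was not tested. LOC100254843 has 1 transcript length, 1170 bases, in every library that lists it, so its own FPKM carries no such shift.

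**Figure D5:**
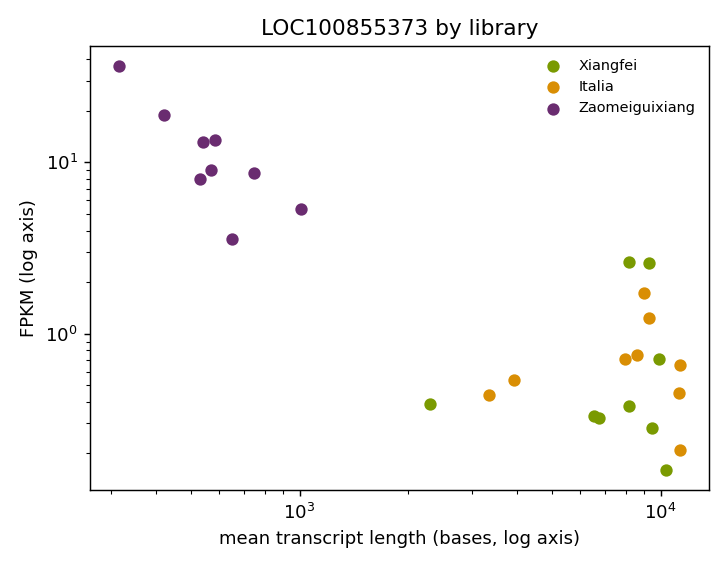
LOC100855373 in the 27 libraries, with the mean transcript length in bases on the horizontal axis and FPKM on the vertical axis, both log axes, and colours for cultivars. The 9 Zaomeiguixiang libraries lie between 315 and 1011 bases and the other 18 between 2292 and 11350 bases.

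The reductase family list held 12 genes, LOC100254843 and 11 others, and 9 of the 12 had a mean of at least 10 expected counts. The most abundant member was LOC100255484, annotated as isoflavone reductase-like, with a range of 47.7 to 292 FPKM and a median of 134 in Xiangfei, 69.3 to 271 and 153 in Italia, and 32.0 to 108 and 56.8 in Zaomeiguixiang. It was lower in Zaomeiguixiang than in Italia, with a log2 fold change of -1.73 ± 0.32 (SE, edgeR adjusted p = 6.480e-04), although the ranges of the 2 cultivars overlapped. This call was lost in 14 of 27 fits that left out 1 library, with an adjusted p of up to 0.00226 without Zaomeiguixiang EL36 replicate 1. In Zaomeiguixiang the median of LOC100254843, 77.5 FPKM, was above that of LOC100255484, while in both other cultivars LOC100255484 was far the more abundant.

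LAR1 and LAR2 encode leucoanthocyanidin reductases, which make the catechin units of condensed tannins. LAR1 stayed at or below 4.26 FPKM in all libraries. LAR2 ran from 8.8 through 26.8 to 51.0 FPKM in Xiangfei, from 2.49 through 3.6 to 156 in Italia and from 2.33 through 7.13 to 188 in Zaomeiguixiang. The Italia maximum was in EL35 replicate 3, the library with the most seed transcripts. The Zaomeiguixiang maximum was in an EL36 library, and seed transcripts took 0.0302% to 0.0499% of the counts in that group. The part of seed transcripts in these values was not tested. LOC100243450, isoflavone reductase-like, was higher in Italia than in Xiangfei by 4.51 ± 0.86 on the log2 scale (SE, edgeR adjusted p = 9.350e-04, 3.18% of all genes called), at medians of 1.54 and 0 FPKM. That call was lost in 23 of 27 fits that left out 1 library. LOC100243193 ran from 0.45 through 2.13 to 5.58 FPKM in Zaomeiguixiang and did not exceed 1.07 elsewhere, so its ranges overlapped. LOC100267485 reached at most 22.9 FPKM, and LOC100248319 was at or below 6.22 FPKM except for 50.4 in 1 Xiangfei library at EL36. Of the 9 members with a mean of at least 10 counts, LOC100254843 and LOC100853950 were those in which the 9 Zaomeiguixiang libraries stood clear above the rest.

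The fit of 27 samples tested 9 of the 11 other family members. Over Xiangfei 1 was higher and 0 lower in Zaomeiguixiang, 11.1% beside 2.14% of all genes, and over Italia 1 was higher and 1 lower, 22.2% beside 2.56%. These are the calls of LOC100853950 and LOC100255484 given above. The median log2 fold change of the 9 was 0.06 over Xiangfei and 0.33 over Italia, beside 0.06 and 0.04 for all genes tested. Between stages 0 of the 9 were called in each of the 3 contrasts, in which 1.14%, 1.5% and 0% of all genes were called. An unadjusted edgeR p under 0.05 was reached by 4 and 5 of the 9 for EL36 and EL38 over EL35. Of all 21152 genes 5195 and 4926 reached it. DESeq2 gave 2 calls for the family between stages. Of all genes it called 0.0528% to 1.89% higher and 0.102% to 2.27% lower in a contrast of stages. For EL38 over EL35 the median of the 9 was -1.13, beside 0 for all genes.

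Coniferyl alcohol, from which eugenol starts, is made by the enzymes of the monolignol list, which held 97 genes, 77 of them tested in the fit of 27 samples. In Zaomeiguixiang 1 was higher and 5 lower than in Xiangfei, 7.79% of the list beside 2.14% of all genes (0.969% higher and 1.17% lower). Over Italia 5 were higher and 2 lower, 9.09% beside 2.56% (1.72% higher and 0.842% lower). In Italia 2 were higher and 4 lower than in Xiangfei, 7.79% beside 3.18% (1.09% higher and 2.09% lower). The list's median log2 fold change was -0.84, 0.19 and -0.80 in these comparisons, beside 0.06, 0.04 and -0.01 for all genes. The calls went in both directions and lay at different steps. The part of the green tissue transcripts, higher in most Xiangfei libraries, in the comparisons with Xiangfei was not tested. Nor was the part of the lower soluble solids of Italia in the comparisons with Italia.

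The entry steps are phenylalanine ammonia-lyase (PAL), cinnamate 4-hydroxylase and 4-coumarate-CoA ligase. The most abundant gene of each, LOC100241377, LOC100253493 and 4CL, had Zaomeiguixiang medians of 33.1, 210 and 35.0 FPKM, against 7.48, 21.4 and 33.1 in Xiangfei and 20.9, 50.6 and 33.1 in Italia. Their ranges overlapped widely, and none of the 3 was called between cultivars. The hydroxylation steps run through shikimate O-hydroxycinnamoyltransferase, the P450 of the 98A family and caffeoylshikimate esterase, whose most abundant genes LOC100265530, LOC100263633 and LOC100261504 had Zaomeiguixiang medians of 33.3, 19.8 and 32.7 FPKM. These too overlapped with both other cultivars. LOC100248095, a less abundant esterase gene named after its values were seen, was called lower in both other cultivars than in Xiangfei. Its log2 fold change was -1.52 ± 0.23 in Italia and -1.55 ± 0.23 in Zaomeiguixiang (SE, edgeR adjusted p = 5.456e-05 and 5.896e-05). Both calls held in all 27 fits that left out 1 library, although the ranges overlapped. The methyltransferases LOC100243978 (caffeoyl-CoA) and LOC100259003 (caffeic acid) had Zaomeiguixiang medians of 237 and 67.7 FPKM, against 470 and 72.5 in Xiangfei and 184 and 47.6 in Italia.

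The last steps, cinnamoyl-CoA reductase and cinnamyl alcohol dehydrogenase, release coniferyl alcohol. LOC100253488, the most abundant reductase gene, had medians of 108, 96.8 and 61.0 FPKM in Xiangfei, Italia and Zaomeiguixiang and overlapped in all 3. LOC100267178, a less abundant reductase gene named after its values were seen, was lower in Italia than in Xiangfei. Its log2 fold change was -3.96 ± 0.38 (SE, edgeR adjusted p = 1.454e-07), held in all 27 fits that left out 1 library. Its calls in Zaomeiguixiang, below Xiangfei and above Italia, were lost in 13 and 11 of these fits. Other called reductase genes are given below. LOC100257308, the most abundant dehydrogenase gene, ran from 109 through 187 to 212 FPKM in Xiangfei, from 37.1 through 62.6 to 111 in Italia and from 28.1 through 57.8 to 101 in Zaomeiguixiang. It was lower than in Xiangfei, with a log2 fold change of -2.18 ± 0.24 in Zaomeiguixiang (SE, edgeR adjusted p = 9.469e-07) and of -1.59 ± 0.23 in Italia (edgeR adjusted p = 4.187e-05). Both calls held in all 27 fits that left out 1 library, and no Zaomeiguixiang library reached the lowest Xiangfei library. LOC100267863, a P450 of the 84A family that diverts to sinapyl units, had medians of 4, 1.37 and 8.78 FPKM.

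A few other called genes of the list were named after their values were seen, and some stood far apart between cultivars. LOC104879919 ran from 7.02 through 28.1 to 58.2 FPKM in Zaomeiguixiang and did not exceed 1.04 in Xiangfei or 2.79 in Italia. Its log2 fold changes were 5.97 ± 0.90 and 6.31 ± 0.93 (SE, edgeR adjusted p = 8.361e-05 and 5.632e-05). Its annotation names both a caffeoyl-CoA O-methyltransferase and an E3 ubiquitin ligase, so which product it stands for is unclear. LOC100265206, a shikimate O-hydroxycinnamoyltransferase, had medians of 26.2, 3.62 and 0 FPKM in Xiangfei, Italia and Zaomeiguixiang, with Xiangfei libraries between 0 and 112, and was called lower in Zaomeiguixiang than in Xiangfei (edgeR adjusted p = 2.372e-05). LOC100262421, a cinnamyl alcohol dehydrogenase, was at 0 in all 9 Zaomeiguixiang libraries and between 0.16 and 15.0 FPKM in Xiangfei (edgeR adjusted p = 5.601e-04). That call was lost in 14 of 27 fits that left out 1 library. The cinnamoyl-CoA reductase genes LOC100241301 and LOC100855275 were called higher in Italia than in both other cultivars. LOC100257572 and LOC100267759, of the same enzyme, were called higher in Zaomeiguixiang than in Italia. LOC100241301 for Italia over Xiangfei held in all 27 fits. The other calls of these reductase genes were lost in 5 to 22 of 27. LOC100256391, 4-coumarate-CoA ligase-like, was called higher in Zaomeiguixiang than in Italia, at medians of 0.48 and 0 FPKM (edgeR adjusted p = 1.629e-04). LOC100250277, a P450 of the 84A family, was called lower in Italia than in Xiangfei, at medians of 0.98 and 6.01 FPKM (edgeR adjusted p = 2.063e-04). Both held in all 27 fits.

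Between stages, averaged over cultivars, 1 monolignol gene was called for EL36 over EL35, 2 for EL38 over EL35 and 0 for EL38 over EL36. Of all genes, 0.501% were called higher and 0.643% lower in the first contrast, 0.534% and 0.964% in the next, and 0 in the last. At an unadjusted edgeR p under 0.05 were 34, 35 and 8 of the 77 tested. Of all 21152 genes 5195, 4926 and 1519 reached it. The list's median log2 fold change was 0.55, 0.30 and -0.11, beside -0.02, 0 and 0 for all genes. DESeq2 gave 21 calls for the list between stages. Of all genes it called 0.0528% to 1.89% higher and 0.102% to 2.27% lower in a contrast of stages. LOC100232921, a caffeic acid 3-O-methyltransferase, rose from a median of 1.5 FPKM at EL35 to 11.9 at EL36 and 9.04 at EL38, by 3.60 ± 0.42 and 3.04 ± 0.41 on the log2 scale (SE, edgeR adjusted p = 1.397e-05 and 4.123e-05). LOC100242793, described as cinnamoyl-CoA reductase 2, fell by 2.76 ± 0.50 from EL35 to EL38 (SE, edgeR adjusted p = 8.764e-04), a call lost in 20 of 27 fits that left out 1 library. The Zaomeiguixiang ranges of LOC100254843 overlapped across these stages.

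A list of acyltransferases held 15 genes, 7 of them tested. They were described as vinorine synthase, methanol O-anthraniloyltransferase, benzyl alcohol O-benzoyltransferase or BAHD acyltransferase DCR. None was described as a coniferyl alcohol acyltransferase, so the step to coniferyl acetate was not examined by its own enzyme. Of the 7 genes 0 were called in any of the 6 contrasts of the 27-sample fit. Of all genes 3.18%, 2.14% and 2.56% were called between cultivars and 1.14%, 1.5% and 0% between stages. These shares are too small for 7 genes to be read against. At an unadjusted edgeR p under 0.05 were 1 to 3 of the 7 in 5 contrasts and 0 for EL38 over EL36. Of all 21152 genes 6251, 6626 and 6297 reached that p between cultivars and 5195, 4926 and 1519 between stages. DESeq2, run as an alternative, gave 6 calls for the acyltransferase list between cultivars and 2 between stages. Of all genes it called 1.85% to 3.65% higher and 1.67% to 4.17% lower in a contrast of cultivars. In a contrast of stages it called 0.0528% to 1.89% higher and 0.102% to 2.27% lower. Dirigent proteins and laccases, which couple monolignols into lignans and lignin, were a list of 83 genes, 40 of them tested. Between cultivars 1 of the 40 was called for Italia over Xiangfei, 1 for Zaomeiguixiang over Italia and 0 for Zaomeiguixiang over Xiangfei, 2.5%, 2.5% and 0% beside 3.18%, 2.56% and 2.14% of all genes, which is near the background. Between stages 0 were called. At an unadjusted edgeR p under 0.05 were 16 and 18 of the 40 for EL36 and EL38 over EL35 and 2 for EL38 over EL36. Of all 21152 genes 5195, 4926 and 1519 reached it. DESeq2 gave 10 calls between stages, to be read beside its shares of all genes given above. The gene called by edgeR between cultivars was LOC100253840, a dirigent protein with medians of 33.7, 3.76 and 58.2 FPKM in Xiangfei, Italia and Zaomeiguixiang. Its log2 fold changes were -2.96 ± 0.51 and 2.63 ± 0.50 (SE, edgeR adjusted p = 2.674e-04 and 9.151e-04), lost in 2 and 21 of 27 fits that left out 1 library. No gene was described as an O-methyltransferase of eugenol, isoeugenol or chavicol. In the 18 comparisons of 3 against 3 samples, the 4 lists gave 2 calls from 787 tests between cultivars, both LOC100853950. Of all genes 0% to 0.326% were called in these (0.0174% for Zaomeiguixiang over Xiangfei at EL35). Between stages the lists gave 0 calls from 761 tests, of which 227 had an unadjusted edgeR p under 0.05. Of all genes, from 1001 of 16994 (EL38 over EL36 in Italia) to 3513 of 17905 (EL36 over EL35 in Zaomeiguixiang) reached it.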

How the data were processed

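Berry RNA of 27 samples was sequenced, 3 for each cultivar and stage. The authors filtered the reads, mapped them to the grapevine V2 genome with HISAT2 to find further transcripts, added those to the reference set, mapped the reads onto all transcripts with Bowtie2 and quantified with RSEM. The deposited expected counts are estimated counts without normalization. The deposited FPKM values are normalized by the authors for transcript length and library and rounded to 2 decimals. The deposited length is the mean transcript length in bases. Genes at 0 are not listed and were taken as 0. Since each cultivar was mapped to the same reference, a lower transcript level and a poorer match of a cultivar's alleles cannot be told apart.

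Expected counts were rounded and tested with edgeR 4.0.16 (TMM, default low-count filter, quasi-likelihood) in R 4.3.3, on 6 samples for each of 18 pairs of groups and on all 27 samples for contrasts averaged over stages or cultivars. Calls needed a log2 fold change of 1 or more in size and a p of 0.001 or less after Benjamini-Hochberg adjustment. The SE printed with edgeR is the fitted change divided by the square root of its F statistic. Tested on simulated counts at a dispersion of 0.25, the fit averaged over stages for Zaomeiguixiang over Xiangfei recovered 93 of 100 genes set to a log2 change of 2 among 18498 genes, and the 3 against 3 fit at EL35 recovered 3 of 100 among 17911. Both recovered at least 95 of 100 changed by 4. The common dispersion of the real fit was 0.526. FPKM was described on log2(FPKM + 1). Alternatives were DESeq2 1.42.0, its size factors, no low-count filter, a pseudocount of 0.1, the replicate number as a block, left-out libraries and 1 fit of all samples. Leaving out the 3 libraries with most seed transcripts was added after the data were seen.

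Named genes were LOC100254843, members of its reductase family with a mean of at least 10 counts, the most abundant gene of each monolignol enzyme, the 10 genes most like it and the 3 reference genes on each side. Lists were matched by protein description. The gene and the lists were chosen with earlier results of these data known. The RefSeq gene table held 22426 of the 24590 reference identifiers.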

Additional observations from a re-analysis of the deposited data

Results flagged for a closer look

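Whether genes moved unequally in the 3 cultivars between EL35 and EL38 was tested with edgeR on all 27 samples, at an adjusted p of 0.05 or less and with no minimum on the fold, a looser threshold than the 0.001 used elsewhere. Of the 133 tested genes of the 4 lists 1 passed it, beside 34 of all 21152 genes (0.161%), and 0 of all genes passed at 0.001. LOC100240827, described as laccase-14, an oxidase that can couple monolignols, had an edgeR adjusted p of 0.0449 in this test. In Zaomeiguixiang it stood at 44.4, 78.5 and 62.6 FPKM at EL35 and at 15.0, 12.4 and 16.2 at EL38, a log2 fold change of -2.30 within the cultivar (edgeR adjusted p = 0.0155, not called at the threshold of 0.001). In Italia it stood at 0.82, 2.25 and 3.27 FPKM at EL35 and at 23.6, 25.3 and 10.4 at EL38, a log2 fold change of 3.18 (edgeR adjusted p = 0.0660). In Xiangfei the values were 24.6, 41.1 and 10.1 FPKM at EL35 and 2.04, 0.73 and 30.0 at EL38, and the 30.0 FPKM was in replicate 3, the Xiangfei library with the most seed transcripts, whose part in it was not tested. All 3 EL38 libraries lay below the EL35 range in Zaomeiguixiang and above it in Italia, while the stages overlapped in Xiangfei. Italia had lower soluble solids than the other cultivars at both stages, and the part of ripeness in this difference was not tested.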

How the results depend on the processing

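The level of LOC100254843, as the mean difference in log2(FPKM + 1), was 6.14 for Zaomeiguixiang over Xiangfei and 6.10 over Italia. The scale understates a change from near 0, and the values were 9.02 and 8.74 with a pseudocount of 0.1 and 9.70 and 9.27 with counts scaled by DESeq2 size factors. Leaving out 1 library gave 5.97 to 6.38 and 5.93 to 6.34. Between stages, averaged over cultivars, EL38 over EL35 was -0.04, and -0.72 with DESeq2 size factors, and leaving out 1 library gave -0.28 to 0.13, so that its sign is not settled.

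The list genes called depended on the tool and the samples. DESeq2 called 90 in the 9 cultivar comparisons within a stage against 2 by edgeR. In these it called 0.484% to 2.82% of all genes higher and 0.503% to 1.86% lower. In the 9 stage comparisons within a cultivar it called 67 against 0. Of all genes it called 0.0561% to 1.3% higher there and 0.0482% to 1.84% lower. For Italia over Xiangfei, Zaomeiguixiang over Xiangfei and Zaomeiguixiang over Italia it called 25, 20 and 22 against 8, 7 and 10. Of all genes it called 1.85%, 2.01% and 3.65% higher there and 4.17%, 3.04% and 1.67% lower. For EL36 and EL38 over EL35 it called 21 and 14 against 1 and 2. Of all genes DESeq2 called 1.89% and 1.56% higher and 1.83% and 2.27% lower in these contrasts. Without the low-count filter the counts were 18 for cultivars within a stage, 7 for stages within a cultivar, and 5 and 4 for EL36 and EL38 over EL35. With DESeq2 size factors EL38 over EL35 gave 1. All 27 samples in 1 fit gave 9 within a stage. Without the 2 libraries with seed transcripts named in the plan (Xiangfei EL38 replicate 3 and Italia EL35 replicate 3) the counts were 9 within a stage, 13 for Zaomeiguixiang over Xiangfei, 2 for EL36 over EL35 and 1 for EL38 over EL35. Without the 3 libraries with most seed transcripts they were 9 within a stage, 2 and 1. Leaving out 1 library gave 5 to 10, 5 to 10 and 3 to 10 for the 3 averaged cultivar contrasts and 1 to 4 and 1 to 3 for EL36 and EL38 over EL35, and leaving out 1 replicate number gave 0 for comparisons of groups. The cause of these differences was not tested.

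Pooled over all groups, samples with the same replicate number were no more alike than others. The mean correlation of deviations was -0.00311 over 108 pairs with the same number and 0.00292 over 216 with different numbers. These pairs pool pairs within a cultivar with pairs across cultivars, so pairing within a cultivar was not tested on its own. With the number as a replicate block, the calls within a stage went from 2 to 0 and those for EL38 over EL35 from 2 to 1.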
